A study of Mus musculus with 3 samples.

Results

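Nonclassical major histocompatibility complex (MHC) class I genes were read in sorted B cell lymphomas of the pBIC mouse. The 9 genes were chosen by name: H2-Q4, H2-Q6, H2-Q7, H2-T22, H2-T23, H2-T24, H2-M3, Cd1d1 and Mr1. No measured value was in the rule, but earlier results of these data were known when the genes were chosen. All 9 had a row in the count tables, out of 37646 genes listed. Each of the 3 tumours gave 1 poly(A) RNA library, and the libraries form 1 group. Every mouse was C57BL/6 and carried p53F/F, Blimp1F/F, IKK2castopF/stopF and Cg1Cre/+, that is, floxed Trp53 and Blimp1 (Prdm1) alleles, an active IKK2 transgene behind a floxed stop, and Cre from the Ighg1 (C gamma 1) locus. Spleens were taken from moribund animals, and live B220+GFP+ cells were sorted. The age of the animals is not given in the sources used here. The series also names normal germinal centre B cells as controls; they were not analysed here, so no value below says whether a gene was higher or lower than in normal B cells.

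Class I heavy chains fold with beta-2-microglobulin and hold a ligand in a groove at the cell surface. The classical mouse chains H2-K and H2-D are highly polymorphic and show peptides to CD8 T cells, whereas the nonclassical chains vary little between individuals, are usually made at lower levels, and present restricted ligands such as leader peptides, formylated peptides, lipids or vitamin metabolites. The genes of the Q, T and M regions lie in the H2 complex on chromosome 17, while Cd1d1 and Mr1 lie on other chromosomes.

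Library totals were 15141009, 15022902 and 15074513 counts in tumours 1, 2 and 3. The B cell markers Ms4a1, Cd79a, Cd79b and Pax5 were all above 100 CPM (counts scaled to a common library size) in every tumour; Ms4a1, which encodes CD20, had 922.5, 569.5 and 256.4 CPM, and Pax5, the B lineage factor, had 629, 262 and 335 CPM. The summed levels of 5 T cell markers were 16.2, 24.8 and 38.3 CPM, and those of 4 NK cell markers were 2.07, 3.13 and 2.88 CPM. In the plasma cell and erythroid marker lists, 1 gene each passed the edgeR test of variation between tumours. Jchain, which joins antibody subunits, had 35.6, 414 and 233 CPM (edgeR adjusted p = 0.0363), and Hbb-bs, a beta globin, had 2.59, 8.70 and 61.7 CPM (edgeR adjusted p = 0.0234). In counts of bulk RNA, fewer cells of a type and less RNA per cell cannot be told apart.

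RNA of all 9 genes was found in every tumour at 1 CPM or more, a level reached by 28.7% of listed genes. At 10 CPM or more in every tumour were 6 of the 9, against 20.7% of listed genes. At 100 CPM or more were H2-Q4, H2-Q6, H2-Q7 and H2-T23, which is 4 of 9, against 4.81% of listed genes. Because the 9 were chosen with earlier results known, these shares do not test how nonclassical genes as a family are expressed. Of 15 other nonclassical genes listed, 3 reached 1 CPM in every tumour. The median of the 9 mean levels was 85.5 CPM, beside 33.5 CPM over the 11478 genes tested. Summed over the 9 genes, the level was 1062, 1082 and 1027 CPM in tumours 1, 2 and 3. The sum thus stayed nearly level while single genes ran in opposite orders. CPM is not corrected for length, so genes are ordered by level only in TPM, in which each count is divided by the summed exon length of the gene and scaled to a common total.

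**Figure D1:**
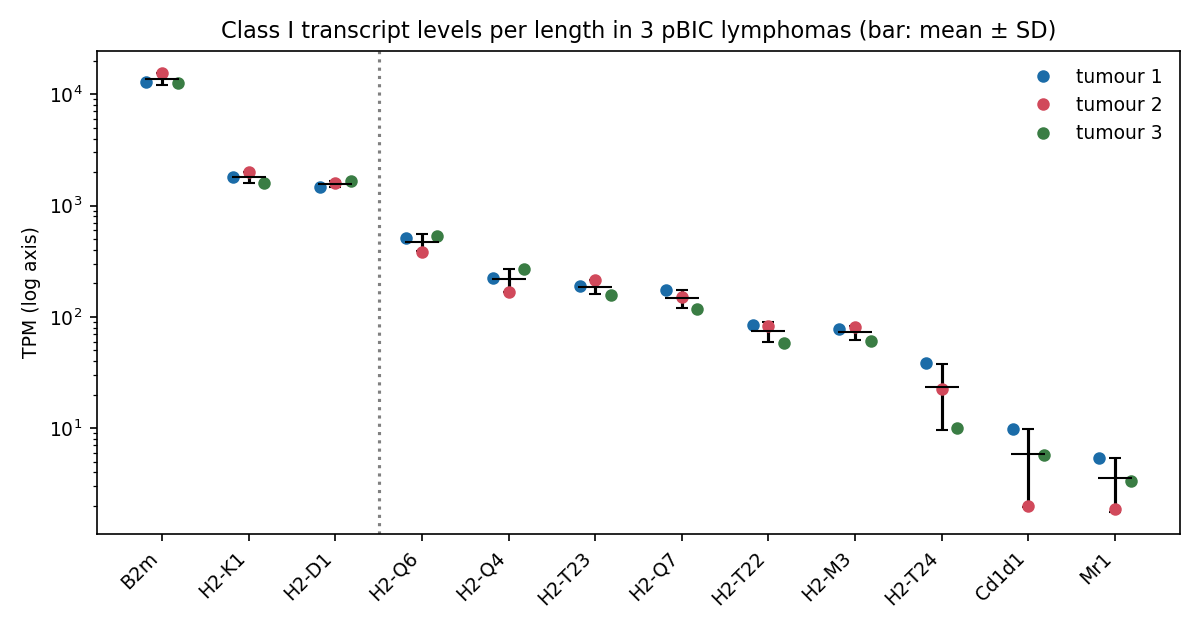
Level of each nonclassical class I gene, and of B2m, H2-K1 and H2-D1 left of the dotted line, in TPM (log axis), with 1 point per tumour and the mean and SD over 3 tumours. Among the nonclassical genes, H2-Q6 stands highest at a mean of 474 TPM and Mr1 lowest at 3.55 TPM.

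Per length, H2-Q6 of the Q region had the highest level of the 9 in every tumour. H2-Q6 (ENSMUSG00000073409.12, chromosome 17, 35424850 to 35430055, plus strand) and H2-Q7 (ENSMUSG00000060550.16, chromosome 17, 35439155 to 35443773, plus strand) belong to the family that encodes Qa-2, a class I molecule anchored to the membrane by glycosylphosphatidylinositol. H2-Q4 (ENSMUSG00000035929.11, chromosome 17, 35379617 to 35385290, plus strand) encodes the Qb-1 heavy chain. These coordinates are on GRCm38, the assembly of build mm10.

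H2-Q6 had 5009, 4202 and 5609 counts in tumours 1, 2 and 3, or 324.5, 292 and 367 CPM (328 ± 37.3, SD, n = 3). Per length this was 508, 383 and 531 TPM (474 ± 79.4). Its tumours lay close together, with tumour 2 lowest and a highest-to-lowest ratio of 1.25 in CPM. H2-Q4 had 2732, 2268 and 3517 counts, or 177, 158 and 229.9 CPM (188 ± 37.4). Its level per length was 222, 166 and 267 TPM (219 ± 50.7). It had the order of H2-Q6, with tumour 3 highest and tumour 2 lowest, at a ratio of 1.46. H2-Q7 had 3489, 3409 and 2544 counts, or 226, 237 and 166 CPM (209.8 ± 38.1). Its level per length was 173, 152 and 118 TPM (147.5 ± 27.9). In CPM, H2-Q7 ran the other way from H2-Q4 and H2-Q6, with tumour 3 lowest and a ratio of 1.43.

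The split of Q counts between these genes therefore changed from tumour to tumour. Of the counts on the 7 listed Q genes, H2-Q6 took 41.7%, 40.4% and 45.7%. H2-Q7 took 29.04%, 32.8% and 20.7%, and H2-Q4 took 22.7%, 21.8% and 28.6%. H2-Q5, listed as a polymorphic pseudogene, took 5.07% ± 0.844. Tumour 3 was thus the tumour with most H2-Q4 and H2-Q6 and least H2-Q7 among its Q counts. Within a tumour, H2-Q7 minus H2-Q4 in log2(TPM + 1) was -0.36, -0.13 and -1.18 (mean -0.56 ± 0.55). H2-Q7 was the lower per length in 3 of 3 tumours, by 1.47-fold (exact two-sided sign-flip test, p = 0.25, the smallest that 3 tumours allow, and 0.25 after Benjamini-Hochberg adjustment over 4 differences). The mean difference was -0.25 without tumour 3. It turned to 0.16 in favour of H2-Q7 when counts were not divided by length (p = 0.75, same exact test).

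How far a read can tell these genes apart bears on that split. The libraries were read as single reads of 50 bases, and the annotated coding sequences of H2-Q6 and H2-Q7 were 95.4% identical, those of H2-Q4 and H2-Q6 90.2%, and those of H2-Q4 and H2-Q7 90.8%. The first coding window of 50 bases that H2-Q6 and H2-Q7 share, at bases 15 to 64 of the H2-Q6 coding sequence counted from the A of the start codon, is printed with its counterparts to show what such a read holds. It was spliced from the exons of the annotated transcripts, and capitals mark bases that differ from H2-Q6.
H2-Q6: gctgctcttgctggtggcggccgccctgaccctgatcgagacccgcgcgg
H2-Q7: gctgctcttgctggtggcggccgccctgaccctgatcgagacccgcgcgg
H2-Q4: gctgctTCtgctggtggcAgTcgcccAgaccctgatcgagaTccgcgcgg
H2-K1: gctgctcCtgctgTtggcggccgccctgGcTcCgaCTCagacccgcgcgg
H2-D1: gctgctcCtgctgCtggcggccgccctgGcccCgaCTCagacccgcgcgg
A read of this stretch is the same for H2-Q6 and H2-Q7, while H2-Q4 differs from it at 6 bases, H2-K1 at 8 and H2-D1 at 7.

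Over whole transcripts, 712 of 2036 windows of 50 bases in H2-Q6 (35.0%) occurred in another annotated gene, of which 284 were in H2-Q7. In H2-Q7 the share was 1190 of 4499 (26.5%), with 631 in H2-Q10 and 393 in H2-Q5. In H2-Q4 it was 944 of 2594 (36.4%), with 398 in Gm11131, an antisense gene whose exons overlap those of H2-Q4 over 496 bases. The median over tested genes was 0.792%, and 19.97% of them shared over 10% of their windows. The Q genes thus share more of their sequence than most tested genes do. The H2-Q8 and H2-Q9 genes have no row in the tables used here. How reads that map to several genes were treated is not given in the sources used here, so the split among Q genes is uncertain. The part of shared reads in the opposite order of H2-Q7 was not tested.

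**Figure D2:**
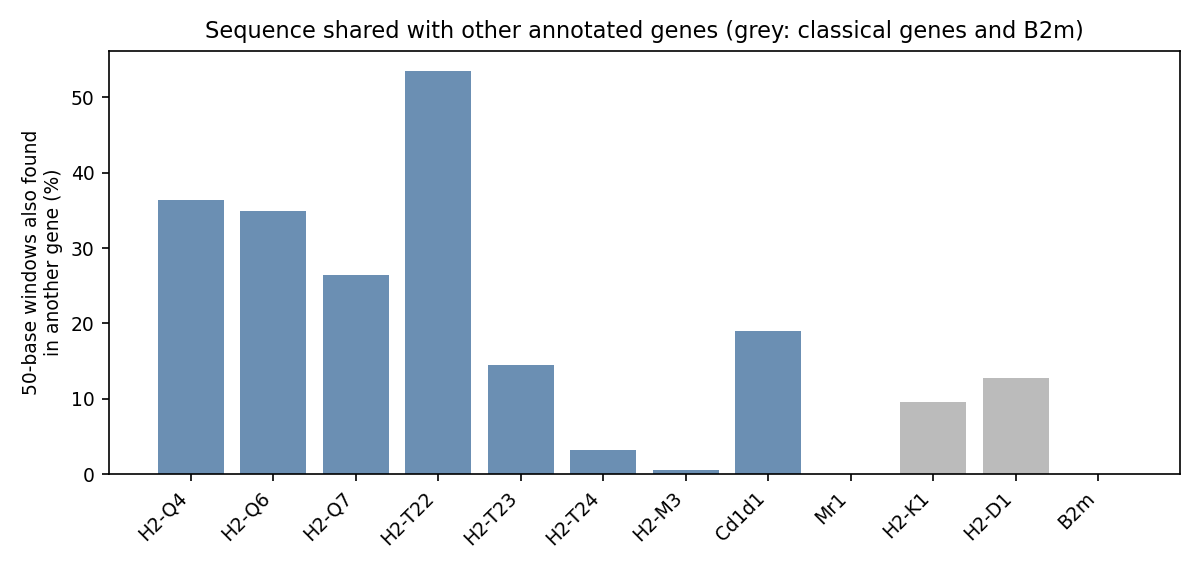
Percent of the 50-base windows in the annotated transcripts of each gene that also occur in another annotated gene, for the nonclassical genes and, in grey, H2-K1, H2-D1 and B2m. H2-T22 has the highest share at 53.5%, and Mr1 has none of 6067 windows. For H2-Q4 and H2-T22 the share includes windows in an antisense gene that overlaps them.

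Upstream sequence is shown for the Q genes because H2-Q6 and H2-Q7 differed in their order across tumours. The windows are from RefSeq on GRCm38.p6, 250 bases before to 50 bases after the annotated start, and 7 of the 9 genes had one. Capitals mark matches, searched on both strands, to the kappaB pattern (GGG and TTCCC with any 2 bases between) and to a shorter (TTTCNNTTC) or longer (TTTC and TTTC with any 2 bases between) form of the interferon response element.
H2-Q4, chr17:35379367-35379666, plus strand: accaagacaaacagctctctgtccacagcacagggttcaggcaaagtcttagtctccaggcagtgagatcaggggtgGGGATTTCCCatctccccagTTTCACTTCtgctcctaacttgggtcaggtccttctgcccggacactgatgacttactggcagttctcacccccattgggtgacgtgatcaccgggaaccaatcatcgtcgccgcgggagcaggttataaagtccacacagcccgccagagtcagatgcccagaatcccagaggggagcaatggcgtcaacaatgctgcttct
H2-Q6, chr17:35424600-35424899, plus strand: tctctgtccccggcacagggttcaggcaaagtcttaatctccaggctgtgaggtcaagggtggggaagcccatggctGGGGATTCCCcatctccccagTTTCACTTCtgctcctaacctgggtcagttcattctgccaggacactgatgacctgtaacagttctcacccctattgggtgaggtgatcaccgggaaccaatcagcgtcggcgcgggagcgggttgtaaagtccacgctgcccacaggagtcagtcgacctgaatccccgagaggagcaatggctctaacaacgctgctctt
H2-Q7, chr17:35438905-35439204, plus strand: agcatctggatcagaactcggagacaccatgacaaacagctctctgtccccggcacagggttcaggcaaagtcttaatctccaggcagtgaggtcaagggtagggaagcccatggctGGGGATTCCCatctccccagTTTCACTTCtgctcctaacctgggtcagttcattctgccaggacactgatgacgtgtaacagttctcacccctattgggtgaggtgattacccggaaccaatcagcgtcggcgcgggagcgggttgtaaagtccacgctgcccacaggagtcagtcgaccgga
The H2-Q6 and H2-Q7 windows were 97.7% identical over 260 aligned bases, and H2-Q4 was 86.6% identical to H2-Q6 over 284. All 3 held the kappaB pattern, at 173 bases before the start in H2-Q4 and H2-Q6 and at 133 in H2-Q7, against 1.75% of 32851 promoter windows. H2-K1 and H2-D1 held it too. The pattern TTTCNNTTC followed it in each, as TTTCACTTC, against 7.52% of windows. That pattern was taken as an element of class I genes, and the 3 windows are much alike. The shares of all windows are therefore no test of enrichment. Distances count from the annotated start. In H2-Q7 TTTCACTTC also lay nearer to it, at 113 bases against 153 in H2-Q4 and 152 in H2-Q6. So did CCAAT on either strand, at 40 and 16 bases against 79 and 55 in both. The shorter kappaB distance in H2-Q7 therefore depends on where its start is annotated. A match describes letters and not a bound site.

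The T region genes spanned a wide range of levels. H2-T23 (ENSMUSG00000067212.8, chromosome 17, 36029773 to 36032855, minus strand) encodes Qa-1, which holds leader peptides of classical class I chains and is read by the CD94-NKG2A receptor of NK cells. H2-T23 had 2594, 3245 and 2313 counts, or 168, 226 and 151 CPM (182 ± 39.1). Per length it had 189.7, 213.5 and 158 TPM (187 ± 27.9). Tumour 2 was highest and tumour 3 lowest, at a ratio of 1.49 in CPM.

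H2-T22 (ENSMUSG00000056116.18, chromosome 17, 36037128 to 36042747, minus strand) encodes a chain that holds no peptide and is bound by a subset of gamma delta T cells. It had 1369, 1473 and 997 counts, or 88.7, 102.5 and 65.2 CPM (85.5 ± 18.9). Its level per length was 84.7, 82.0 and 57.6 TPM (74.8 ± 14.9). In CPM it had the order of H2-T23, with tumour 2 highest and tumour 3 lowest. Within a tumour, H2-T23 minus H2-T22 in log2(TPM + 1) was 1.15, 1.37 and 1.44 (mean 1.32 ± 0.15), so H2-T23 was higher by 2.498-fold in 3 of 3 tumours (exact two-sided sign-flip test, p = 0.25, adjusted 0.25 over 4 differences). That difference was 0.46 when only windows found in no other gene counted as length, with the counts unchanged.

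H2-T22 shared more sequence with other genes than any of the other 8. Of its 3597 windows of 50 bases, 1925 (53.5%) occurred elsewhere, 1124 in H2-T10 and 955 in A930015D03Rik. The coding sequences of H2-T22 and H2-T10 were 96.9% identical. H2-T10, listed as a polymorphic pseudogene, took 15.8% ± 2.24 of the counts on the pair. A930015D03Rik lies on the opposite strand over 1003 exonic bases of H2-T22, so windows shared with it can be the same place and not a copy. It had 0, 2 and 1 counts. Whether strand was used in counting is not given in the sources used here, so reads of the pair cannot be told apart. H2-T23 shared 14.5% of its windows, and its coding sequence was 75.7% identical to that of H2-T22.

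H2-T24 (ENSMUSG00000053835.17, chromosome 17, 36005695 to 36020560, minus strand) had 394, 260 and 111 counts, or 25.5, 18.1 and 7.26 CPM (16.96 ± 9.19). Per length this was 38.2, 22.7 and 10.0 TPM (23.6 ± 14.1). It was highest in tumour 1 and lowest in tumour 3, where it was 3.52-fold lower than in tumour 1 in CPM. Its share of T gene counts went from 8.48% (exact 95% interval 7.69 to 9.31) in tumour 1 to 4.995% (4.42 to 5.62) and 3.06% (2.52 to 3.67) in tumours 2 and 3. These intervals do not overlap, but they cover counting error only. H2-T24 shared only 3.17% of its windows with another gene, the lowest of the T genes read here. The B cell markers Ms4a1, Cd79a (369.9, 175 and 163 CPM) and Cd79b (397, 344 and 213 CPM) had the same order as H2-T24, while Pax5 was lowest in tumour 2. The summed neutrophil markers had that order too (44.6, 16.7 and 2.22 CPM, 0 of 4 above 1 CPM in every tumour, Ly6g at 1, 2 and 0 counts). The part of these cells in the H2-T24 range was not tested.

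H2-M3 (ENSMUSG00000016206.6, chromosome 17, 37270220 to 37274484, plus strand) binds peptides that start with N-formylmethionine, as bacterial and mitochondrial proteins do. It had 525, 610 and 443 counts, or 34.0, 42.4 and 28.96 CPM (35.1 ± 6.81). Its level per length was 77.2, 80.7 and 60.8 TPM (72.9 ± 10.61). Tumour 2 was highest and tumour 3 lowest, at a ratio of 1.47 in CPM, the order seen in CPM for H2-T22, H2-T23 and H2-Q7. In TPM, H2-T22 and H2-Q7 were highest in tumour 1. Of all tested genes, 35.8% were highest in tumour 2 and 33.0% were lowest in tumour 3 in CPM, so sharing this order says little. Of its windows, 0.576% occurred in another gene.

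Upstream windows of the T and M genes that shared this order in CPM are printed for comparison with the Q genes, from the same source and with the same use of capitals.
H2-T22, chr17:36042693-36042992, minus strand: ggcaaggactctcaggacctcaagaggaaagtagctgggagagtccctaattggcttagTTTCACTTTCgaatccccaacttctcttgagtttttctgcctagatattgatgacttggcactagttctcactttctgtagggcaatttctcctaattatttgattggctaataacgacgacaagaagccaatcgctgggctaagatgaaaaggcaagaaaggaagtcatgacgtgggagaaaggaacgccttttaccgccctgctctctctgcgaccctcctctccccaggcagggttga
H2-T23, chr17:36032652-36032951, minus strand: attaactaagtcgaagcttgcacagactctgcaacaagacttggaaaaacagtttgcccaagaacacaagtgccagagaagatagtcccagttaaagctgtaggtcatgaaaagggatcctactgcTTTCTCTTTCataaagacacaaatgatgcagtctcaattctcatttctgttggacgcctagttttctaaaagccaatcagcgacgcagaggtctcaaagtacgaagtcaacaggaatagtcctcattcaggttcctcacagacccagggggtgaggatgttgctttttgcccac
H2-M3, chr17:37269984-37270283, plus strand: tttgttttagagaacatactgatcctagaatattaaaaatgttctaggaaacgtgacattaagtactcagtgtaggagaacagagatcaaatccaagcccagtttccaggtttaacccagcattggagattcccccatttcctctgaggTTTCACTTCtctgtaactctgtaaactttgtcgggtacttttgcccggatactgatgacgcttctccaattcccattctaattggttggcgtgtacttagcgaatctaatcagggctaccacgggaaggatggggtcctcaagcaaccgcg
H2-T22 and H2-T23 held the longer form, as TTTCACTTTC at 191 and TTTCTCTTTC at 124 bases before the RefSeq start, against 3.44% of promoter windows. For H2-T23 the annotated gene span given above begins 154 bases further upstream than the RefSeq start, so its match lies inside that span. H2-M3 held the shorter form at 101 bases before the start. The kappaB letters were in none of these 3 windows. The 6 printed windows all held CCAAT on at least 1 strand, as did 37.4% of all windows. TGACG, the core of the cyclic AMP response element, was found on at least 1 strand in H2-Q4, H2-Q7, H2-T22 and H2-M3, against 20.8% of windows. The Mr1 window was also searched and is not printed. It held no match to CCAAT, to TGACG, or to the kappaB and interferon patterns.

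**Figure D3:**
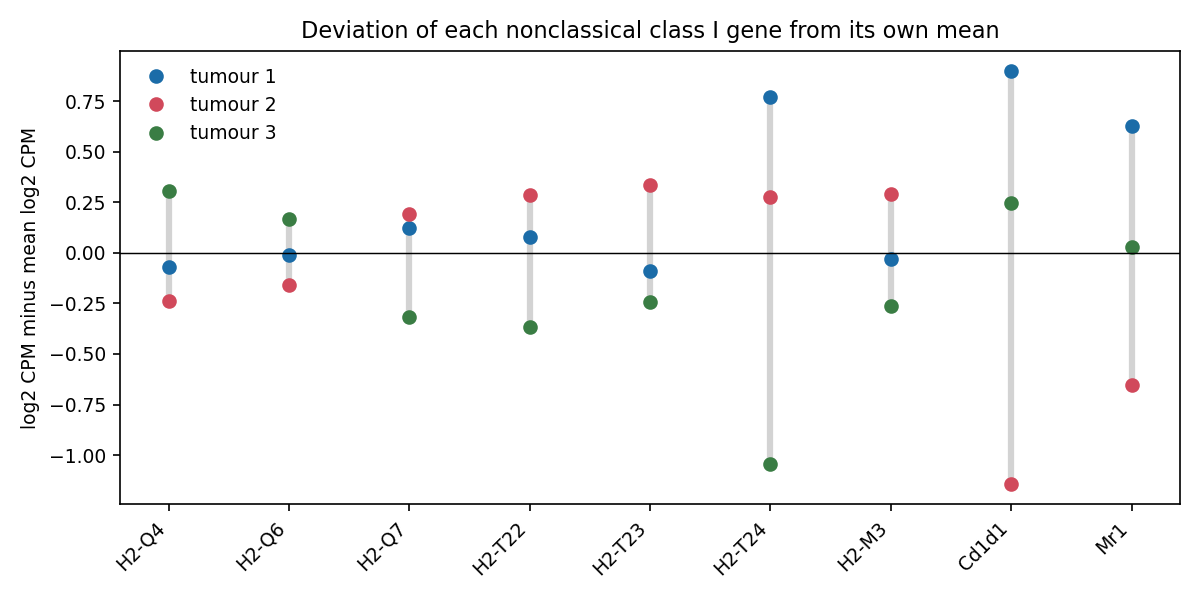
Deviation of each nonclassical class I gene in each tumour from its own mean over the 3 tumours, in log2 CPM. H2-Q4 and H2-Q6 are highest in tumour 3, H2-Q7, H2-T22, H2-T23 and H2-M3 in tumour 2, and H2-T24, Cd1d1 and Mr1 in tumour 1.

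Outside the H2 complex the levels were low. Cd1d1 (ENSMUSG00000028076.12, chromosome 3, 86995834 to 86999441, minus strand) encodes CD1d, which presents lipids to natural killer T cells. Cd1d1 had 119, 27 and 75 counts, or 7.71 (exact Poisson 95% interval 6.39 to 9.23), 1.88 (1.24 to 2.73) and 4.90 (3.86 to 6.15) CPM. Its mean was 4.83 ± 2.92 CPM, or 5.85 ± 3.90 TPM. The 3 intervals do not overlap, but they cover counting error only. Those of H2-Q4, H2-Q6, H2-T22, H2-T23, H2-T24 and Mr1 do not overlap between tumours either, while some of H2-Q7 and H2-M3 do. H2-Q6 was among them at a ratio of only 1.25. The share of all tested genes that do the same was not computed, so this is no trait of the 9. The Cd1d1 ratio of 4.11 between tumours 1 and 2 was the largest among the 9 genes. Cd1d1 was not called in the test of variation between tumours (edgeR unadjusted p = 0.165, adjusted p = 0.997). Cd1d1 shared 489 of 2565 windows (19.1%), all with Cd1d2, its near copy at 96.8% coding identity. Cd1d2 had 5, 1 and 2 counts, so few reads of the pair were assigned to it.

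Mr1 (ENSMUSG00000026471.14, chromosome 1, 155127277 to 155146814, minus strand) presents riboflavin metabolites of microbes to mucosal-associated invariant T cells. It had 154, 59 and 101 counts, or 9.98 (8.46 to 11.7), 4.11 (3.13 to 5.30) and 6.60 (5.38 to 8.02) CPM. Its mean was 6.90 ± 2.95 CPM, or 3.55 ± 1.79 TPM. Tumour 1 was highest and tumour 2 lowest, as for Cd1d1, at a ratio of 2.43. Among the 9, Mr1 was the gene with no 50-base window in any other annotated gene.

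Within a tumour, Cd1d1 minus Mr1 in log2(TPM + 1) was 0.74, 0.06 and 0.64 (mean 0.48 ± 0.37). Cd1d1 was the higher per length by 1.40-fold in 3 of 3 tumours (exact two-sided sign-flip test, p = 0.25, adjusted 0.25), but in tumour 2 the genes were nearly level. With the length of the longest transcript the mean was 0.094 ± 0.329 and Cd1d1 was higher in 2 of 3 tumours (same exact test, p = 0.75). The difference turned to -0.51 without division by length, Mr1 having 5981 exonic bases and Cd1d1 2570.

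CD1d is known as a marker of marginal zone B cells in mouse spleen, so the markers of that cell type were set beside Cd1d1. Their sum was 495, 307 and 247.5 CPM. That sum was lowest in tumour 3, unlike Cd1d1, and so were Notch2 (371, 267 and 198 CPM) and S1pr3 (26.7, 6.89 and 0.915 CPM). Dtx1, a modulator of Notch signalling, had 95.5, 32.9 and 48.5 CPM, and Cr2, which encodes complement receptor 2, had 38, 0 and 1 counts, both lowest in tumour 2 as Cd1d1 was. The summed macrophage markers, of a cell type that also makes CD1d, were 148, 143 and 147 CPM, mostly from Cd68 at 139, 124 and 142 CPM. Of the other members, Adgre1 had 3.24, 0.626 and 0.8499 CPM, highest in tumour 1 and lowest in tumour 2 as Cd1d1 was, while C1qa (0.583, 7.10 and 1.24 CPM), C1qb (1.04, 7.17 and 0.588 CPM) and Csf1r (2.59, 3.55 and 1.96 CPM) were highest in tumour 2. The part of other cells in the Cd1d1 and Mr1 ranges was not tested. Of all 11478 tested genes, the 3 whose centred log2 CPM lay nearest to that of Cd1d1 over the 3 tumours were Gse1 (Euclidean distance 0.0691), Arhgap24 (0.108) and Tmem71 (0.114). With 3 tumours such likeness is common, and 37 genes lay within 0.25.

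Ordered by mean TPM, the genes ran H2-Q6, H2-Q4, H2-T23, H2-Q7, H2-T22, H2-M3, H2-T24, Cd1d1 and Mr1. Neighbours were compared within each tumour in log2(TPM + 1). H2-Q6 exceeded H2-Q4 by 1.13 ± 0.12, H2-Q7 exceeded H2-T22 by 0.97 ± 0.08, and H2-M3 exceeded H2-T24 by 1.76 ± 0.74, each in 3 of 3 tumours. H2-T24 exceeded Cd1d1 by 1.85 ± 1.14 and H2-T23 exceeded H2-Q7 by 0.35 ± 0.19, also in 3 of 3. Each of these steps was larger than its SD between tumours. H2-Q4 and H2-T23 differed by 0.21 ± 0.56 and H2-T22 and H2-M3 by 0.03 ± 0.11, with the direction held in 2 of 3 tumours, so neither pair could be ordered with these lengths. The order of the means was the same with other lengths, but the steps were not. With windows found in no other gene, H2-T22 exceeded H2-M3 by 0.99 ± 0.11 and H2-Q4 exceeded H2-T23 by 0.699 ± 0.559, each in 3 of 3 tumours, and H2-T23 exceeded H2-Q7 by 0.14 in 2 of 3. Only the length changed there, and all counts of each gene were kept. For H2-Q4 and H2-T22 that length also leaves out windows shared with an overlapping antisense gene. Genes with much shared sequence, such as H2-T22, come out too high if reads on shared windows were counted, which is not known. With the longest transcript, H2-T22 exceeded H2-M3 by 0.182 ± 0.105 in 3 of 3 tumours and H2-Q4 exceeded H2-T23 by 0.079 ± 0.558 in 2 of 3.

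**Figure D4:**
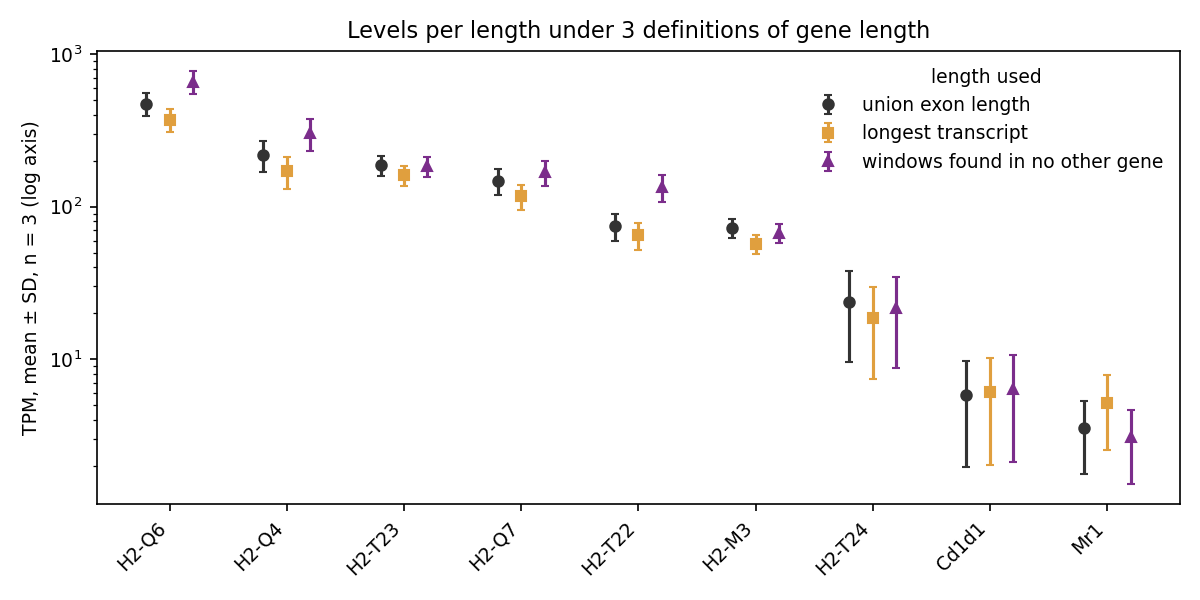
Mean TPM of each nonclassical class I gene (log axis, error bars SD over 3 tumours) under 3 definitions of gene length: union of exons, longest annotated transcript, and 50-base windows found in no other gene. The counts are the same under each, and only the length differs. The order of the 9 genes is the same under each, and H2-T22 moves furthest above H2-M3 with the last.

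The classical genes gave the scale. H2-K1 had 1632, 2142 and 1544 CPM, a mean of 1773 ± 323 CPM or 1797 ± 204 TPM, and H2-D1 had 1569 ± 97.5 TPM. H2-T23 minus H2-K1 in log2(TPM + 1) was -3.25, -3.22 and -3.32 (mean -3.26 ± 0.05), so H2-T23 lay 9.59-fold lower in 3 of 3 tumours (exact two-sided sign-flip test, p = 0.25, adjusted 0.25). Of the 4 differences tested it had the smallest SD, which covers tumours and not the choice of length. The mean was -3.78 with the longest transcript as length and -3.01 with windows found in no other gene as length. A set of 16 heavy chain genes of the Q, T and M regions, which leaves out the listed H2-M10 genes and H2-M11 at 3 counts or fewer each, together took 28.6% (exact 95% interval 28.2 to 28.9), 23.7% (23.4 to 24.1) and 26.6% (26.2 to 26.9) of the counts on these genes, H2-K1 and H2-D1 together. Tumour 2, with most H2-K1, had the smallest nonclassical share. Per length the share was 27.8% ± 2.75.

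The next comparison asked whether any of the 9 genes varied between tumours more than genes of like abundance did. Of 11478 genes tested with an intercept-only edgeR quasi-likelihood fit, 16 passed an adjusted p of 0.05, or 0.139%, and 0 of the 9 genes were among them. At an unadjusted p under 0.05 there were 720 genes and again 0 of the 9, and a test on the DESeq2 dispersion trend called 0 of the 9 as well. The number of genes called was 0 without tumour 1, 0 without tumour 2 and 11 without tumour 3. H2-T24 came nearest with an unadjusted p of 0.0635 and an edgeR adjusted p of 0.854, followed by Cd1d1 with 0.165 and 0.997. The other 7 had unadjusted p from 0.400 for Mr1 to 0.805 for H2-Q6. H2-T24 reached an unadjusted p of 0.0279 without tumour 2, and Cd1d1 reached 0.0438 without tumour 3, with no call after adjustment. A gene that misses the threshold in 3 tumours is not shown to be constant.

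The size of the ranges was also close to the background. A highest-to-lowest ratio of 2 or more was seen for 3 of 9 genes (H2-T24, Cd1d1 and Mr1), against 28.7% of tested genes. The median ratio was 1.49 for the 9 and 1.64 for all tested genes. By tumour, 3 of the 9 were highest in tumour 1 (background 32.4%), 4 in tumour 2 (35.8%) and 2 in tumour 3 (31.8%). The lowest value fell in tumour 1 for 0 genes (32.5%), in tumour 2 for 4 (34.5%) and in tumour 3 for 5 (33.0%).

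The partners of these chains were present throughout. B2m, the shared light chain, had 3986 ± 807 CPM. The 13 genes of peptide processing and loading all exceeded 10 CPM in the 3 tumours; their median level was 424 CPM, and 0 of 13 passed the variability test. Their summed level was 6072, 8248 and 5381 CPM, highest in tumour 2 and lowest in tumour 3, as H2-Q7, H2-T22, H2-T23 and H2-M3 were in CPM. Among them, the chaperone Calr had 1265 ± 351 CPM and the oxidoreductase Pdia3 had 1096 ± 347 CPM. Of 10 regulators of class I transcription, 10 were above 1 CPM and 0 passed the test. Nfkb1, a subunit of NF-kappaB, had 395.5 ± 31.02 CPM, and Nlrc5, the class I transactivator, had 454, 271 and 310 CPM. The 10 genes of lipid loading and endosomal processing around CD1d were likewise all above 1 CPM with 0 calls. Psap, the saposin precursor, had 1352 ± 127 CPM and the protease Ctss had 601 ± 64.5 CPM.

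**Figure D5:**
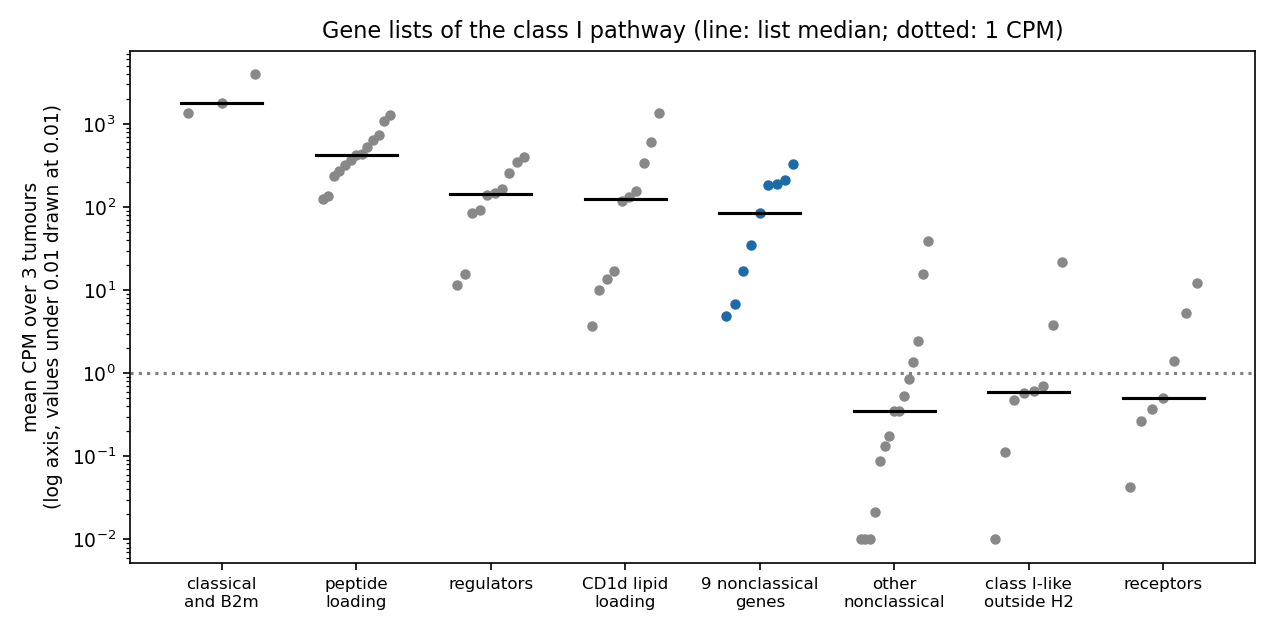
Mean CPM over 3 tumours (log axis, values under 0.01 drawn at 0.01), 1 point per listed gene, for 8 gene lists of the class I pathway; bars are list medians and the dotted line is 1 CPM. CPM is not corrected for length, so the medians give no order of the lists. The median is 85.5 CPM for the 9 nonclassical genes, 424 for peptide loading, 143 for regulators and 125 for lipid loading.

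Most other nonclassical genes were below 1 CPM. Of 22 further Q, T, M and CD1 genes, 15 were listed and 3 reached 1 CPM in every tumour: H2-Q5 at 39.0 ± 7.19, H2-T10 at 15.8 ± 2.54 and H2-Q2 at 2.47 ± 0.648 CPM. No count was found for 3 of the 15, where up to 3 counts or 0.209 CPM could have gone unseen. Among 8 listed class I-like genes outside these families, 2 reached 1 CPM in every tumour. Ulbp1, which encodes the NKG2D ligand MULT1, had 34.1, 16.8 and 14.6 CPM, and Procr, the endothelial protein C receptor, had 3.795 ± 2.80 CPM. Receptors that read class I molecules were low: of 7 listed, 3 reached 1 CPM in every tumour, among them Pirb at 12.3 ± 7.01 and Cd8a at 5.34 ± 2.90 CPM. Klrd1 and Klrc1, which encode the CD94 and NKG2A chains that read Qa-1, were not among them.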

How the data were processed

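Poly(A) RNA of 3 tumours was sequenced as single reads of 50 bases. The authors deposited 1 table of raw counts for each library, without normalization. The submitters' processing notes name FastQC, STAR 2.5.2b, featureCounts 1.6.0 and mm10, without their settings; how strand and multi-mapping reads were handled is not given in the sources used here. Counts were scaled to CPM with TMM (edgeR 4.0.16, R 4.3.3) and to TPM with union exon lengths of GENCODE M21 (GRCm38); log2 values used TPM + 1. Genes passing filterByExpr (11478) were tested with an intercept-only quasi-likelihood fit, the residual deviance over the robust prior variance giving a one-sided F test with Benjamini-Hochberg adjustment at 0.05. DESeq2 1.42.0 was an alternative. Shares have exact Clopper-Pearson intervals, and all intervals cover counting error only. Coordinates are 1-based. Replicates were numbered in accession order, which pairs nothing, and separate animals are not stated, so p-values measure only the spread between these samples. The genes named are the 9 members, list genes past the threshold or among the 2 highest of a list, and the 3 nearest to the gene of largest range; others named were chosen after their values were seen. Members and lists were chosen with earlier results of these data known.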

Additional observations from a re-analysis of the deposited data

How the results depend on the processing

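Without 1 tumour the mean level ran from 3.39 to 6.31 CPM for Cd1d1, from 5.35 to 8.29 CPM for Mr1 and from 12.7 to 21.8 CPM for H2-T24. None of the 9 genes was called in any of the alternatives to the variability test, and the smallest adjusted p was 0.854. The number of tested genes called was 16 as reported, 15 with DESeq2 size factors, 0 with library totals, 0 with a mean count of at least 10, 164 with no filter, 56 with the DESeq2 dispersion trend, 0 with a prior estimated without robust weights (chosen after seeing the data) and 0 to 11 without 1 tumour; the cause was not tested. Of the differences in log2(TPM + 1), Cd1d1 minus Mr1 turned to -0.51 and H2-Q7 minus H2-Q4 to 0.16 without division by length, which follows from the greater lengths of Mr1 and H2-Q7. With the longest transcript as length, Cd1d1 minus Mr1 was 0.094 and H2-T23 minus H2-K1 was -3.78. H2-T23 minus H2-T22 was 0.46 with windows found in no other gene as length, also chosen after seeing the data. Without 1 tumour the means ran from 0.351 to 0.693 for Cd1d1 minus Mr1, -0.769 to -0.245 for H2-Q7 minus H2-Q4, 1.26 to 1.40 for H2-T23 minus H2-T22 and -3.28 to -3.23 for H2-T23 minus H2-K1. No paired comparison of conditions was possible because the tumours form 1 group. The 4 differences between genes are paired within a tumour. Depth limits Cd1d1 and Mr1 most, with counts as low as 27 and 59.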

Other observations

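A pair of M region genes outside the 9 were read mainly in 1 tumour. H2-M2 had 0, 37 and 0 counts in tumours 1, 2 and 3, and H2-M5 had 9, 48 and 2 counts. At 2.57 and 3.34 CPM in tumour 2 these levels are above those of the other tumours, but both genes were picked out after their values were seen and neither was tested.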
